A study of Mus musculus with 2 samples.

Results

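Cxcl9, Cxcl10, Cxcl1, Cxcl2, Cxcl3 and Cxcl16 are 6 genes for CXC chemokines among the 32285 genes of the count tables, and each had counts in both libraries. The choice was made with earlier results of these data known, among them the lower Cxcl9 in a myeloid subset. The 6 genes were described by the cell type that held their transcripts, by their joint detection in single cells and by their level in each of the 2 genotypes. The data are single-cell RNA sequencing of leukocytes sorted from tumors of AT3 cells, a mouse mammary carcinoma line. Both groups were female mice of 6 to 12 weeks that carried loxP-flanked Pgd alleles (Pgd fl/fl), had received 500000 AT3 cells in the mammary fat pad and were killed on day 30. The Pgd fl/fl group, labelled WT, carried no Cre, and the Pgd fl/fl LysM Cre group, labelled 6PGDKO, carried Cre under the Lyz2 (lysozyme M) promoter, which acts in macrophages, monocytes and neutrophils. They are called the fl/fl and the Cre library below. Pgd encodes 6-phosphogluconate dehydrogenase, an enzyme of the oxidative pentose phosphate pathway. Each genotype gave 1 library from the pooled tumors of 10 mice, so a difference between genotypes cannot be told apart from a difference between these 2 pools, and no test or p-value was computed. The intervals below cover counting error only. They treat the counts as independent and are too narrow for a gene whose counts lie in few cells.

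Chemokines guide leukocytes along a gradient by way of G protein-coupled receptors. Cxcl9 and Cxcl10 are induced by interferons and bind Cxcr3 on activated T cells and NK cells, so tumor macrophages that make them are known as a source of T cell recruitment. Cxcl1, Cxcl2 and Cxcl3 carry an ELR motif, are induced by NF-kB after inflammatory stimuli and bind Cxcr2 on neutrophils. Cxcl16 is made as a transmembrane protein, is shed by the protease Adam10, and binds Cxcr6 on resident and effector T cells.

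The 3 neutrophil-attracting genes lie close together on chromosome 5 of GRCm38, Cxcl3 from 90786101 to 90788093, Cxcl1 from 90891245 to 90893121 and Cxcl2 from 90903899 to 90905938. Cxcl9 (92321331 to 92328079) and Cxcl10 (92346638 to 92348889) lie on the opposite strand of the same chromosome, and Cxcl16 lies on chromosome 11 from 70454389 to 70459984. All 6 are annotated as protein coding. In the count tables they carry the identifiers ENSMUSG00000029379 (Cxcl3), ENSMUSG00000029380 (Cxcl1), ENSMUSG00000058427 (Cxcl2), ENSMUSG00000029417 (Cxcl9), ENSMUSG00000034855 (Cxcl10) and ENSMUSG00000018920 (Cxcl16). The RefSeq sequences upstream of the start sites are shown for the 5 genes on chromosome 5 because the genes detected together below were looked at beside them. They run 5′ to 3′ on the strand of the gene, up to the base before the start site, for 250 bases in Cxcl9 and Cxcl10 and 120 bases in the other genes, and capitals mark matches to the kappaB consensus, the site bound by NF-kB, and to the core of the interferon-stimulated response element, GAAANNGAA, on either strand.
Cxcl9 (GRCm38 chr5:92328080-92328329, minus strand): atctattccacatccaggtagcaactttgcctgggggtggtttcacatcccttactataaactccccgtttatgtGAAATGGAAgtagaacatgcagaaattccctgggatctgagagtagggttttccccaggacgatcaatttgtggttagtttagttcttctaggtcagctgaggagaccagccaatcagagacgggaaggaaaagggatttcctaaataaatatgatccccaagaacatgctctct
Cxcl10 (GRCm38 chr5:92348890-92349139, minus strand): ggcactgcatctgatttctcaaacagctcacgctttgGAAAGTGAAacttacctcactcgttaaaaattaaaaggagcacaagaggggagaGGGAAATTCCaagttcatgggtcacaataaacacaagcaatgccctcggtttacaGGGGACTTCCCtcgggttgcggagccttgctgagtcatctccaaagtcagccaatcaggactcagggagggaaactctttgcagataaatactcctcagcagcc
Cxcl1 (GRCm38 chr5:90891125-90891244, plus strand): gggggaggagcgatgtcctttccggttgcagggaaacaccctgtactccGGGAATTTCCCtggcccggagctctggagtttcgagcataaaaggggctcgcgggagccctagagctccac
Cxcl2 (GRCm38 chr5:90903779-90903898, plus strand): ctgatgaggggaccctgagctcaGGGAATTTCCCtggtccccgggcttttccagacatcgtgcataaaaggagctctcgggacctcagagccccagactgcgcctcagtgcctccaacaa
Cxcl3 (GRCm38 chr5:90785981-90786100, plus strand): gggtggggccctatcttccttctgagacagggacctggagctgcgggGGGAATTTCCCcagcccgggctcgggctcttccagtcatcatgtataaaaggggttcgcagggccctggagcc
Cxcl1, Cxcl2 and Cxcl3 shared the run GGGAATTTCCC, whose kappaB match began 71, 97 and 73 bases before the start site. Cxcl10 held kappaB matches 159 and 104 bases before its start site, the nearer one overlapping a second match by all but 1 base, and a response element core 213 bases before it. Cxcl9 held the response element core 175 bases before its start site and no kappaB match in these 250 bases. The TATA box letters TATAAA stood 195 bases before the Cxcl9 start site and 30 bases before that of Cxcl3 (not in capitals), and the interferon-gamma activation site letters TTCNNNGAA were in none of the 5 windows. Over 32851 RefSeq promoters, from 250 bases before to 50 bases after the start site, 8.46% held the kappaB consensus, 8.56% the response element core, 8.30% TTCNNNGAA and 13.6% TATAAA, and a match of this kind describes letters, not a bound site.

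After the filters on cells, 3565 cells of the fl/fl library and 2798 of the Cre library remained, with a median of 5554 and 7926 unique molecular identifiers (UMIs, 1 per captured RNA molecule), and the libraries shared 0 barcodes. The 18 clusters were named from marker genes with the 6 chemokines left out of the clustering, and each name below stands for cells like that type. The macrophages (748 and 783 cells, in the order fl/fl and Cre throughout) were clusters 0, 9, 12 and 16. Cluster 9 was led by immunoglobulin genes beside C1qa and Apoe, and cluster 12 by genes of cycling cells. The class named monocytes (127 and 322 cells) also had Cd209a and Ccl17 among its leading genes, so it was not monocytes of 1 kind. Pgd itself was detected at 104 CPM (UMIs of the gene per 1000000 UMIs of the cell type) in fl/fl macrophages and 29.7 CPM in the Cre library, a log2 ratio of -1.81 (-2.0 to -1.63), and at -1.28 (-1.68 to -0.89) in monocytes and 0.10 (-0.18 to 0.38) in T cells. UMIs of T or B cell receptor genes were present in 40.8% and 49.3% of macrophages. All 9 listed T cell markers were found in macrophages, at 636 and 905 CPM in sum, and all 9 B cell markers, at 572 and 115 CPM. The part of such RNA in the values below was not tested beyond the values given without these cells.

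The 6 genes fell into different patterns of source. Macrophages were 24.1% of the kept cells and 36.1% of the kept RNA, and they held 64.0% of Cxcl9 UMIs (95% interval 63.3 to 64.6), 48.4% of Cxcl10 (47.4 to 49.4), 82.2% of Cxcl1 (80.2 to 84.1), 67.7% of Cxcl2 (67.2 to 68.1), 22.4% of Cxcl3 (19.2 to 25.8) and 62.7% of Cxcl16 (62.1 to 63.3). The myeloid types together held 96.7% of Cxcl9, 97.8% of Cxcl16, 93.2% of Cxcl2 and 89.0% of Cxcl1 UMIs. They held 66.5% of Cxcl10 and 53.3% of Cxcl3 UMIs, so the label of a myeloid chemokine covered the first 4 genes better than these 2. T cells held 26.8% of Cxcl10 and 45.2% of Cxcl3 UMIs, but 5 T cells of each library held 67.9% and 56.6% of the T cell Cxcl3 UMIs.

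**Figure D1:**
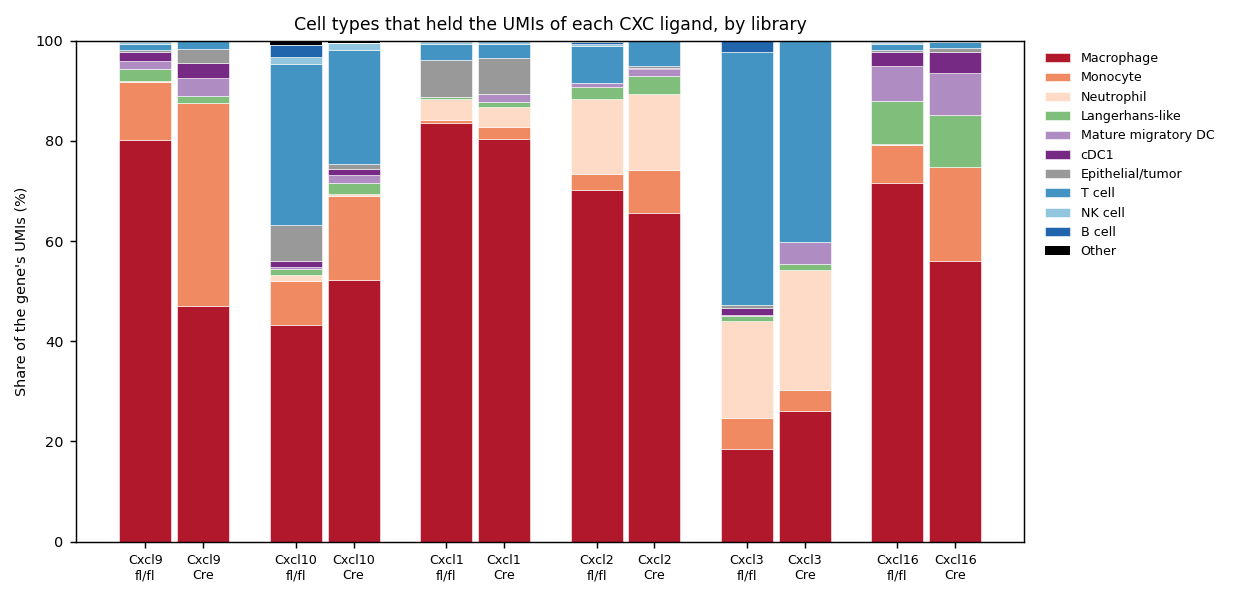
Each bar shows, for 1 gene and library, the share of its UMIs (y axis, percent) that lay in each cell type, in the fl/fl and the Cre library. Macrophages held 80.2% of Cxcl9 UMIs in the fl/fl library and 47.1% in the Cre library, and T cells held 50.5% and 40.2% of Cxcl3 UMIs.

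Cxcl9 was highest in macrophages and in the class named monocytes, whose Cxcl9-high cells had no name at a finer resolution (below). In the fl/fl library it reached 920 CPM in monocytes (869 to 974) and 896 CPM in macrophages (876 to 915), intervals that overlapped, followed by cDC1 at 306, mature migratory dendritic cells at 200 and Langerhans cells at 198 CPM, the last 2 with overlapping intervals. T cells had 15.1 CPM, B cells 9.17 CPM and neutrophils 28.2 CPM from 4 UMIs. The Cre library kept monocytes on top at 1060.4 CPM (1028 to 1094), but its macrophages had 432 CPM (420 to 445). In macrophages the log2 ratio of Cre over fl/fl was -1.05 (-1.10 to -1.0), from 8239 and 4662 UMIs. Cxcl9 was the 1 member of 6 past a log2 ratio of 1 in either direction in macrophages, where 3.78% of the 11879 genes with at least 20 UMIs were past it, and 1.14% of them had a lower ratio.

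The lower Cxcl9 of Cre macrophages was seen both in the share of cells and in the amount per cell. With every cell thinned to 5000 UMIs, 51.1% of 646 fl/fl macrophages had a Cxcl9 UMI (47.2 to 55) and 35.2% of 670 Cre macrophages did (31.6 to 39.0), with a mean of 8.06 and 5.86 UMIs in the cells that had one. Shallower cells, 102 and 113 in number, were left out. Without thinning the shares were 58.6% and 43.7%. B cells, taken as a type that should lack the gene, gave 3.06% of 98 thinned fl/fl cells. The 470 shallower fl/fl B cells were left out here and in the other thinned B cell shares below. The level was lower in each of the 3 macrophage clusters with at least 20 cells in each library, with log2 ratios of -0.98 (-1.04 to -0.92) in cluster 0, -0.83 (-1.01 to -0.65) in cluster 9 and -1.19 (-1.35 to -1.03) in cluster 12. It was -1.02 (-1.11 to -0.94) without the macrophages that carried a T or B cell receptor UMI, and -1.13 without the 5 cells of each library with the most Cxcl9.

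Monocytes went the other way by a smaller amount. They held 1196 and 3996 Cxcl9 UMIs and a log2 ratio of 0.21 (0.11 to 0.30), and 34.8% and 37.1% of thinned monocytes had a Cxcl9 UMI, shares whose intervals overlapped. At a finer resolution 105 and 275 of these cells fell into a cluster with Cxcl9 at 1034 and 1147 CPM, a log2 ratio of 0.15 (0.06 to 0.24). Another 22 and 45 cells, with 2 and 17 Cxcl9 UMIs, fell into a cluster led by Ace, Hp, Ifitm6 and Chil3. Its first 10 genes also held Adgre4 and Treml4, which like Ace are genes of non-classical monocytes. Against the other cells of the class the larger cluster was led by Cxcl9, AA467197, Ccnd1, Cxcl16 and Ccl17, with the macrophage marker C1qa among its first 10 genes, while the classical monocyte marker Chil3 was among those of the smaller one. The marker rule gave neither cluster a name at this resolution, so the Cxcl9-high cells of the class are monocytes by the coarser clustering alone. Langerhans cells had 259 and 138 Cxcl9 UMIs and a log2 ratio of -1.54 (-1.85 to -1.23), but 5 cells held 84.6% and 83.3% of them. Mature migratory dendritic cells had a ratio of 0.47 (0.20 to 0.75), and cDC1 one of -0.05 (-0.32 to 0.22). In cDC1, 5 cells held 89.1% and 66.8% of the Cxcl9 UMIs, 127 of the 184 in the fl/fl library lay in 1 cell, and the ratio was 1.51 (0.81 to 2.28) without the 5 highest cells of each library and 1.02 (0.29 to 1.78) without cells that carried a T or B cell receptor UMI. The epithelial or tumor cells held 44 and 264 Cxcl9 UMIs, 90.9% and 88.6% of them in 5 cells.

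**Figure D2:**
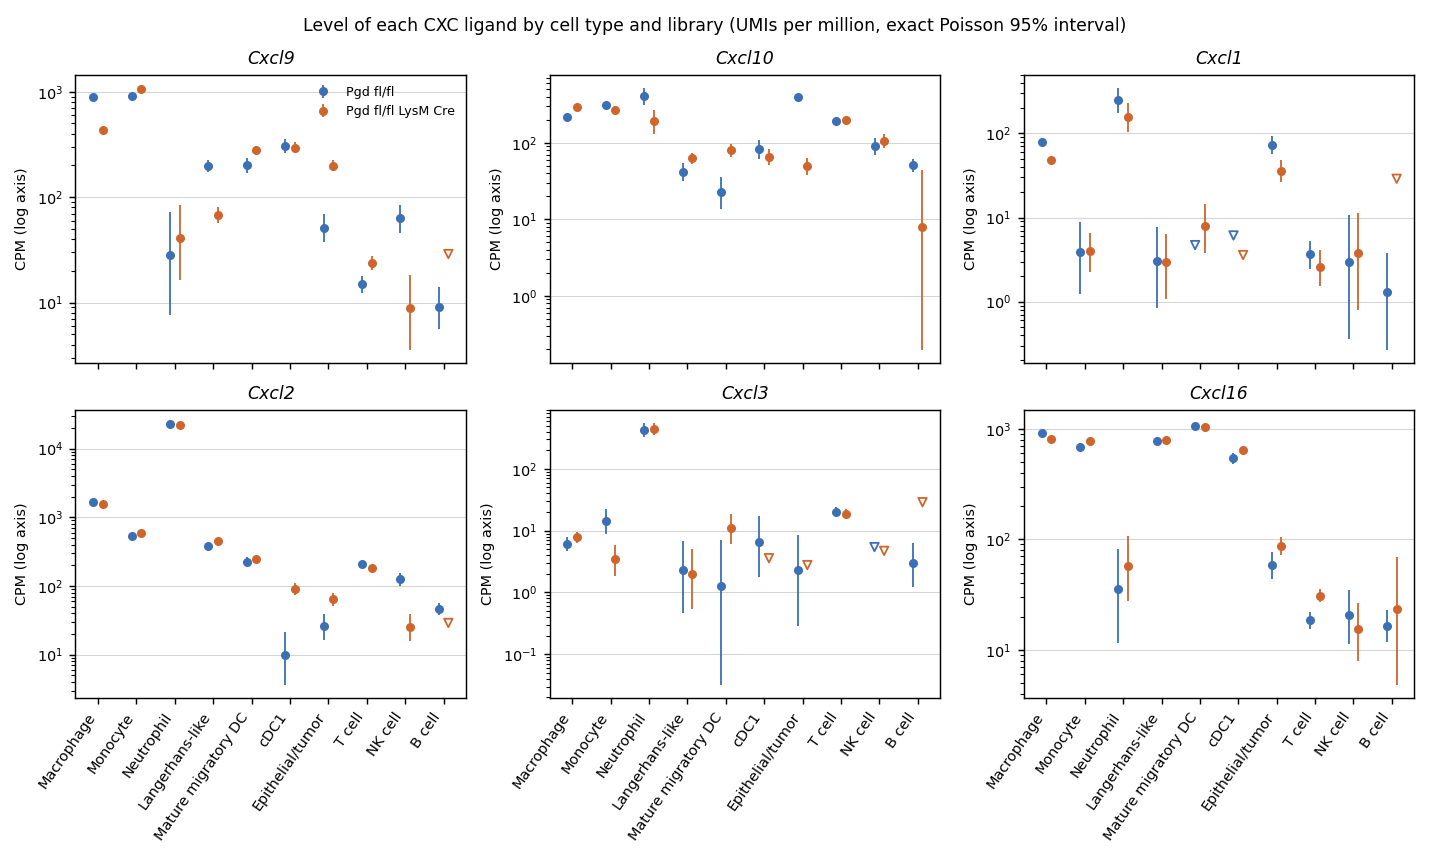
Points give the CPM of each gene (log axis) in 10 cell types of the 2 libraries, with exact Poisson 95% intervals, and open triangles give the upper bound where no UMI was found. Cxcl2 and Cxcl3 are highest in neutrophils, Cxcl9 in macrophages and the class named monocytes, and Cxcl16 is high in the myeloid types other than neutrophils.

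Cxcl10 was found in myeloid cells, T cells and epithelial or tumor cells. In the fl/fl library its level was 408 CPM in neutrophils (310 to 528), 396 CPM in epithelial or tumor cells, 309 CPM in monocytes (280 to 341), 218 CPM in macrophages (208 to 227) and 195 CPM in T cells (185 to 205). The neutrophil interval overlapped those of the epithelial or tumor cells and the monocytes. The neutrophil and epithelial or tumor cell values came from few cells, with 94.8% and 97.0% of UMIs in 5 cells. In the epithelial or tumor cells 1 cell held 285 of the 338 UMIs. In the Cre library macrophages (292 CPM, 282 to 302) and monocytes (266 CPM, 249 to 283) were highest, their intervals just overlapping, and T cells had 199 CPM (189 to 210). Epithelial or tumor cells had 49.7 CPM there, a log2 ratio of -2.99, but 0.53 (-0.59 to 1.76) without the 5 highest cells of each library. Thinned T cells had a Cxcl10 UMI in 20.8% and 21.0% of cells, above the 9.18% of thinned fl/fl B cells (4.29 to 16.7). Thinning left out 569 and 468 shallower T cells, and without thinning the shares were 21.4% and 23.0% in T cells and 3.70% in fl/fl B cells. Cluster 2, led by Foxp3 and Il2ra, genes of regulatory T cells, was the highest T cell cluster at 330 and 384 CPM.

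In macrophages Cxcl10 moved opposite to Cxcl9. The log2 ratio was 0.42 (0.34 to 0.51), from 2003 and 3149 UMIs, and 19.3% of thinned fl/fl macrophages (16.4 to 22.6) and 25.5% of Cre macrophages (22.3 to 29.0) had a UMI. Cells with a UMI had 5.77 and 5.75 UMIs on average. The ratio was 0.55 (0.46 to 0.65) in cluster 0 and 0.27 (0.08 to 0.46) in cluster 12, but -1.79 (-2.25 to -1.35) in cluster 9, from 165 and 57 UMIs. With every macrophage weighted equally the ratio was -0.05. Macrophages thinned to 5000 UMIs also count equally, and they had a mean of 1.12 and 1.47 Cxcl10 UMIs, higher in the Cre library. Thinning left out 102 and 113 shallower macrophages, so the direction at equal weights depended on whether these were counted. In T cells the log2 ratio was 0.03 (-0.07 to 0.14). In monocytes it was -0.22 (-0.39 to -0.05) with 67.9% and 44.7% of UMIs in 5 cells, and 0.54 (0.26 to 0.83) without those cells.

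**Figure D3:**
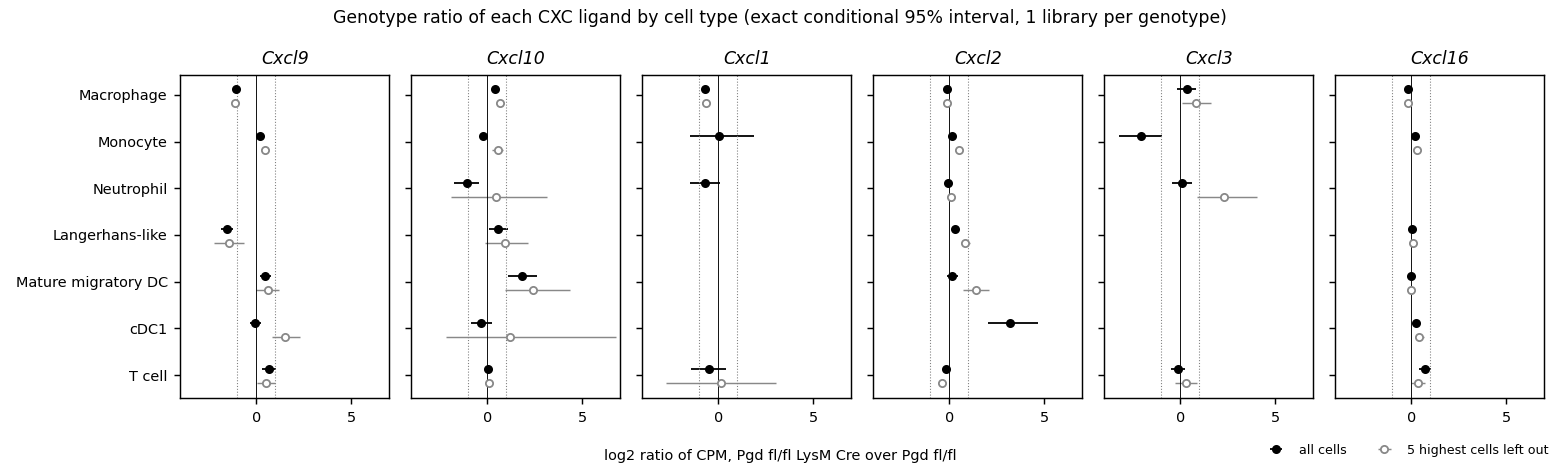
Filled points give the log2 ratio of CPM of Cre over fl/fl (x axis) for each gene in 7 cell types with exact conditional 95% intervals, and open points give the same without the 5 cells of each library with the most UMIs of that gene. Genes with fewer than 20 UMIs in a type are left out, and dotted lines mark -1 and 1. Cxcl9 lies at -1.05 in macrophages and 0.21 in monocytes, and the Cxcl10 ratio of monocytes changes sign between the filled and open points.

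Cxcl2 was by far highest in neutrophils, which had 23048 CPM (22265 to 23851) in the fl/fl library and 22185 CPM (21487 to 22899) in the Cre library. A Cxcl2 UMI was found in 98.2% and 94.4% of them, although these cells had a median of 2231 and 2113 UMIs. Macrophages followed at 1651 and 1541 CPM, then monocytes at 533 and 587, Langerhans cells at 376 and 459, and T cells at 206 and 182 CPM. Because neutrophils were 2.03% of cells, they held 15.1% of Cxcl2 UMIs and macrophages 67.7%. The log2 ratio was -0.06 (-0.12 to 0.01) in neutrophils (-0.32 without those that carried a T or B cell receptor UMI), -0.10 (-0.13 to -0.07) in macrophages and 0.14 (0.02 to 0.26) in monocytes, and 60.4% and 58.5% of thinned macrophages had a Cxcl2 UMI. In cDC1 it was 3.20 (2.02 to 4.68), from 6 and 94 UMIs of which 5 cells held 81.9% in the Cre library.

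Cxcl1 was found in macrophages, neutrophils and epithelial or tumor cells. fl/fl neutrophils had 253 CPM (177 to 351) from 3 cells, macrophages 78.3 CPM (72.7 to 84.2) and epithelial or tumor cells 73.7 CPM (56.7 to 94.3), the last 2 with overlapping intervals, and T cells, monocytes and Langerhans cells were at 3.06 to 3.85 CPM. Macrophages held 720 and 526 UMIs, a log2 ratio of -0.68 (-0.85 to -0.52). That difference was not seen without the macrophages that carried a T or B cell receptor UMI, where 340 and 295 UMIs in 443 and 397 cells gave -0.02 (-0.25 to 0.21). Thinned macrophages had a Cxcl1 UMI in 11.6% (9.24 to 14.3) and 9.25% (7.17 to 11.7) of cells, intervals that overlapped. Within the macrophages cluster 16, led by Retnla and Fn1, had 167 CPM (99.0 to 264) from 18 UMIs in 15 cells and 165 CPM (128 to 210) from 66 UMIs in 52 cells. Cluster 0, the largest, had 92.2 CPM (85.4 to 99.4) and 56.3 CPM (51.2 to 61.8).

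Cxcl3 was rare, with 309 and 321 UMIs among the kept cells. Neutrophils had 422 CPM (322 to 544) and 447 CPM (352 to 558), T cells 20.4 and 18.8 CPM and macrophages 6.20 and 7.79 CPM, and in each type the intervals of the libraries overlapped. The ratio was 0.08 (-0.42 to 0.59) in neutrophils, 0.33 (-0.17 to 0.84) in macrophages and -0.12 (-0.47 to 0.22) in T cells. In fl/fl neutrophils 5 cells held 91.7% of the 60 UMIs and 1 cell held 44, and without the 5 highest cells of each library the ratio was 2.28 (0.90 to 4.01) in neutrophils and 0.83 (0.10 to 1.6) in macrophages. Clusters of T cells differed: 38 and 66 UMIs in cluster 2 gave 0.93, and 30 and 61 in cluster 6 gave 0.84. In the cycling cluster 7, 88 and 2 UMIs gave -5.69 (-8.76 to -3.79), but they lay in only 11 of 147 and 2 of 160 cells. The monocyte ratio of -2.08 (-3.22 to -0.99) came from 19 and 13 UMIs, with the 19 in 5 cells, and it was -0.25 (-3.05 to 3.22) without the monocytes that carried a T or B cell receptor UMI. It made 1 of 6 members past the limit, in a class where 6% of 9277 genes were past it.

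The Cxcl3 of T cells lay in 29 of 1231 and 23 of 1020 cells and in 0 of the 494 and 319 cells of cluster 1, led by Cd8a and Cd8b1. The T cells with a Cxcl3 UMI often had Foxp3 (79.3% and 52.2% of cells, against 25.4% and 30% of the T cells without), Areg, an epidermal growth factor family ligand (86.2% and 82.6%, against 27.8% and 35.2%), and Il2ra (86.2% and 95.7%, against 36.9% and 45.4%). They had a median of 8648 and 6471 UMIs, more than the 5262.5 and 5416 of the other T cells. Of the 8 neutrophil markers, Il1r2, a decoy receptor that regulatory T cells also make, was found in 62.1% and 82.6% of them, and S100a8 in 3 of 29 and 1 of 23 cells. The 8 neutrophil markers summed to 2148 and 949 CPM in the T cells with Cxcl3 and 80.4 and 88.0 CPM in those without. Cd3e, a chain of the T cell receptor complex, was found in 69.0% and 60.9% of the cells with Cxcl3 and in 84.3% and 84.5% of those without. The summed macrophage markers were at 169 and 171 CPM in the cells with Cxcl3 and 444 and 557 CPM in those without. The part of neutrophil RNA in the Cxcl3 of T cells was not tested.

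Cxcl16 was found in most macrophages, monocytes, Langerhans cells, mature migratory dendritic cells and cDC1. It was rarer in neutrophils, and was in 2 of 16 mast cells or basophils, a class found in the Cre library alone. In the fl/fl library it was at 1060.6 CPM in mature migratory dendritic cells (990 to 1135), 915 CPM in macrophages (895 to 935), 769 CPM in Langerhans cells (723 to 818), 691 CPM in monocytes (646 to 737) and 540 CPM in cDC1 (483 to 602). Of these neighbours, Langerhans cells and monocytes had overlapping intervals. Neutrophils had 35.2 CPM and B cells 16.6 CPM. Almost every macrophage had it, 95.5% and 94% of thinned cells, against 7.14% of B cells, and 192 and 190 cells together held 50% of its macrophage UMIs, compared with 44 and 33 for Cxcl9. The log2 ratio was -0.17 (-0.21 to -0.13) in macrophages, 0.18 (0.07 to 0.29) in monocytes, 0.05 (-0.06 to 0.17) in Langerhans cells, -0.03 (-0.15 to 0.10) in mature migratory dendritic cells and 0.26 (0.06 to 0.45) in cDC1. In cDC1 it was 0.04 (-0.24 to 0.31) without cells that carried a T or B cell receptor UMI, which left 26 and 24 cells.

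In the other myeloid types and in T cells at most 1 member passed a log2 ratio of 1 in either direction, and each that did had at least 68.3% of its UMIs in 5 cells of a library. It was 1 of 4 tested members in neutrophils (Cxcl10 at -1.09, where 12.4% of genes were past it), 1 of 4 in Langerhans cells (Cxcl9, 4.97% of genes), 1 of 4 in mature migratory dendritic cells (Cxcl10 at 1.81 from 18 and 101 UMIs, but 0.34 (-0.68 to 1.39) without cells that carried a T or B cell receptor UMI, 6.32% of genes), 1 of 4 in cDC1 (Cxcl2, 9.97% of genes) and 0 of 6 in T cells (3% of genes). In epithelial or tumor cells 4 of 5 were past it, where 8.41% of genes were, from 8 to 18 cells with a UMI for Cxcl9 and Cxcl10. In NK cells 2 of 4 were past it, where 4.93% of genes were, Cxcl9 at -2.82 and Cxcl2 at -2.29, and 5 fl/fl cells held 95.3% of their 43 and 85 UMIs. In B cells, with 35 cells in the Cre library, 3 of 4 were past it, where 26.2% of genes were, and in the unnamed cluster 2 of 3, where 20.8% of genes were.

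In macrophages the joint detection of Cxcl9 and Cxcl10 depended on how detection was defined. After thinning, with 1 UMI counted as detection, a Cxcl10 UMI was found in 20% of fl/fl macrophages with Cxcl9 (15.8 to 24.7) and in 18.7% of those without (14.5 to 23.4), and 66 cells had both where 63.9 would be found if the genes were independent. The odds ratio was 1.09 (0.72 to 1.64). In Cre macrophages the shares were 28.0% (22.3 to 34.2) and 24.2% (20.2 to 28.5), with 66 cells against 60.2 and an odds ratio of 1.22 (0.83 to 1.77). With all UMIs kept the odds ratios were 1.26 and 1.87, and with at least 2 UMIs of a gene counted as detection they were 1.73 and 1.74. Cells with 8 or more Cxcl9 UMIs had Cxcl10 in 27.6% (19.3 to 37.2) and 39.7% (27.1 to 53.4) of cases, while cells with 1 to 7 UMIs lay between 15.4% and 32.7%.

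In monocytes the genes were found together more often. A Cxcl10 UMI was in 32.5% of 40 fl/fl monocytes with Cxcl9 and 10.7% of 75 without, an odds ratio of 4.03 (1.35 to 12.4), and in 32.7% and 14.8% of Cre monocytes, an odds ratio of 2.80 (1.5 to 5.25). In the larger cluster of the finer resolution alone, the shares were 33.3% and 11.9% in the fl/fl library and 32.4% and 14.8% in the Cre library. In each library the intervals of the monocyte and macrophage odds ratios overlapped, and the difference between the classes was not tested. Cxcl16 was also found with Cxcl9 in monocytes, in 90% and 94.2% of those with Cxcl9 and 57.3% and 61.9% of those without. In the larger cluster of the finer resolution these shares were 92.3% and 94.1% with Cxcl9 and 71.2% and 71.8% without.

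**Figure D4:**
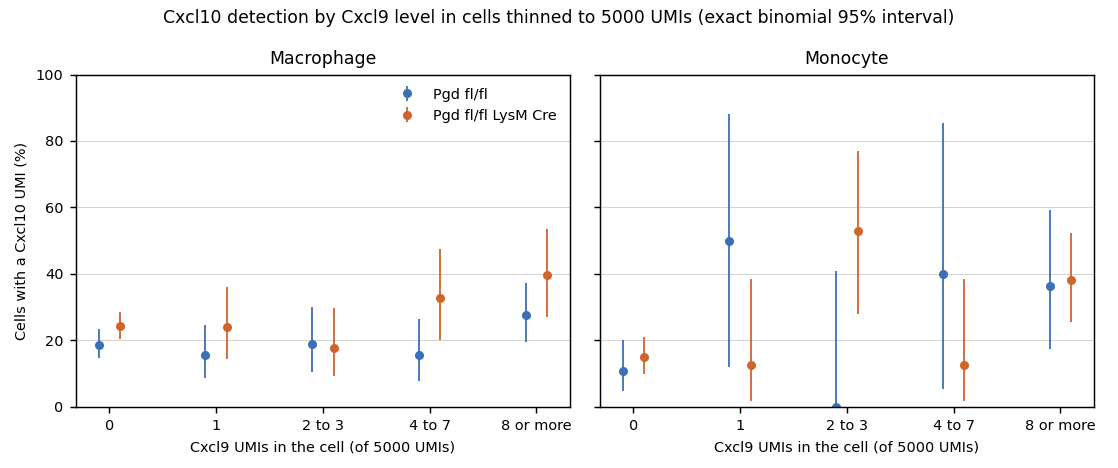
Points give the share of cells with a Cxcl10 UMI (y axis, percent) by the number of Cxcl9 UMIs in the cell after thinning to 5000 UMIs, in macrophages and monocytes of both libraries, with exact binomial 95% intervals. Macrophages without Cxcl9 lie at 18.7% and 24.2% and those with 8 or more UMIs at 27.6% and 39.7%, and monocyte bins between these ends hold 5 to 17 cells.

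Other pairs had odds ratios whose intervals excluded 1 in macrophages under the same thinning with 1 UMI as detection, and other definitions were not tried for them. Of macrophages with Cxcl1, 98.7% and 91.9% had Cxcl2, against 55.3% and 55.1% of those without Cxcl1, with odds ratios of 59.7 (10.2 to 2399) and 9.29 (3.67 to 30.1). Both genes, like Cxcl3 but not Cxcl10, hold the GGGAATTTCCC run in the sequences above, and a link between the run and joint detection was not tested. Of those with Cxcl10, 75.2% and 72.5% had Cxcl2, against 56.8% and 53.7% of the rest, with odds ratios of 2.30 (1.46 to 3.71) and 2.27 (1.54 to 3.40). For Cxcl9 with Cxcl2 the odds ratios were 0.99 (0.72 to 1.38) and 0.90 (0.64 to 1.25). Depth was fixed by thinning in these shares, but cells captured together share free RNA.

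The genes most like each member across 1316 thinned macrophages, out of 7267, differed too. The correlations were low and are given as a description, and the cells share 2 libraries. For Cxcl9 they were Gbp2 (Pearson r = 0.38), a guanylate-binding protein induced by interferon-gamma, Dnase1l3, a secreted DNase, AW112010, and the complement genes C3 and Cfb. For Cxcl10 they were Ifit1 (r = 0.37), Rsad2, Ifit3, Ifit2 and Isg15, genes of the type I interferon response. For Cxcl2 they were Nfkbia (r = 0.46), the NF-kB inhibitor that NF-kB induces, Il1b, Ccrl2, Ifrd1 and Nfkbiz, and for Cxcl1 they were Slfn2 (r = 0.23), Nfkbia, Ehd1, Il1b and Il1rn. For Cxcl16 the highest were Basp1 (r = 0.28), Fth1, Il1b, Cybb and Cd74. Cxcl3 was in 2.43% of macrophages, so it was compared over 33 sums of clusters by library, where Acod1 (r = 0.87), AC160336.1, S100a9, Hdc and G0s2 were most like it, and these sums share libraries and neutrophils dominate them.

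Cxcr3 was highest in T cells (59.2 and 54.6 CPM) and was found at 9.13 and 8.72 CPM in macrophages. Cxcr6 was also highest in T cells (244 and 254 CPM), and Cxcr2 was at 289 and 458 CPM in neutrophils and at most 6.12 CPM in each other type. Of the 8 listed CXC receptors 5 had enough UMIs in macrophages, and none was past a log2 ratio of 1 either way. The largest was Cxcr6 at 0.80 (232 and 474 UMIs), which was higher in the Cre library, as were the T cell markers given above. In monocytes Cxcr6 (16 and 179 UMIs) was past the limit at 1.95, and the T cell marker sum there was 471 and 850 CPM. Of the other CXC ligands, Pf4 was in macrophages at 165 and 138 CPM, and Cxcl12 and Cxcl5 had at most 11 UMIs in a library.

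The lists of interferon and NF-kB genes did not share the shift of Cxcl9 in macrophages. Of 19 tested interferon-gamma-inducible genes 0 were past a log2 ratio of 1, with 12 above 0, 7 below and a median of 0.07, the same as the median of 0.07 over all genes tested. Among the 7 below 0 were Gbp2, the gene most like Cxcl9 across cells, at -0.11, and the proteasome and peptide transporter genes Psmb9 and Tap1 at -0.07 and -0.12. The highest of the 12 above 0 were Nos2 at 0.81 (from 34 and 70 UMIs), Igtp at 0.58 and Irgm2 at 0.42. Of 8 interferon-gamma signalling genes 0 were past it, with Irf1 at 0.29 and Ifng, a T and NK cell product, at 0.88 (421 and 908 UMIs). The 14 type I interferon-stimulated genes had a median of 0.09, with Ifit1 at 0.70 and Rsad2 at 0.25, and 0 past the limit. The 20 NF-kB target genes had a median of 0.07, with 0 past it, Il1b at -0.29, Tnf at 0.26 and Plaur lowest at -0.67. In monocytes 2 of 19 interferon-gamma-inducible genes were past the limit, where 6% of 9277 genes were. They were Nos2 at 2.66 (1.04 to 4.98, from 3 and 55 UMIs) and Gbp2b at 1.05 (-0.73 to 3.46, from 3 and 18 UMIs). There, 11 of the 14 type I interferon-stimulated genes lay below 0, with a median of -0.11.

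**Figure D5:**
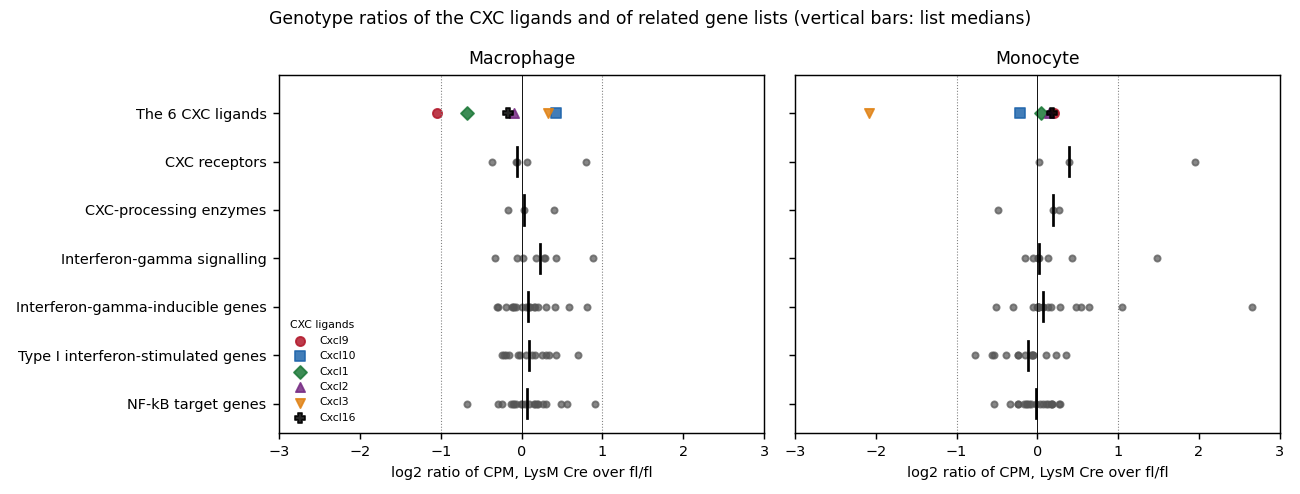
Points give the log2 ratio of CPM of Cre over fl/fl (x axis) for the CXC ligands (coloured) and for the tested genes of 6 lists (grey), with vertical bars at list medians, in macrophages and monocytes. In macrophages Cxcl9 lies at -1.05, outside the range of all 6 lists.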

How the data were processed

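The authors deposited unnormalized UMI counts per gene and barcode from Cell Ranger 6.1.2, with mm10 as genome, per the submitters' processing notes, and also 12 rows for sample tags, which were not analysed here. Cells of the genotypes bore different tags, and per the labels suspensions were pooled before capture. Whether the 2 libraries are 1 capture split by tag was not settled, and such a split would also leave 0 shared barcodes. The labels name CD45+ and CD11b+ sorts. The study's filters on cells were applied (500 to 7500 genes, mitochondrial share up to 15%), which left more cells than the study states. No doublet caller was run. Both libraries were clustered in Seurat 5.3.0 (R 4.3.3) on 2000 variable genes without the 6 chemokines, with 30 principal components, 20 neighbours and resolution 0.8. Clusters were named from marker lists, with at least 3 markers in 25% of cells. An unnamed cluster was led by Lef1 and Tcf7. Types with at least 20 cells in each library were compared. UMIs were summed over cells and divided by the total (CPM). Intervals are 95% exact Poisson for CPM, conditional for ratios and odds ratios, and Clopper-Pearson for shares (scipy 1.17.1). Thinning drew 5000 UMIs per cell without replacement. The most similar genes were the 5 with the highest Pearson r (log2 of counts plus 1, centred by library, genes in at least 5% of cells), or, for a member in fewer cells, over cluster sums (log2 of CPM plus 10). The ratio and thinning functions were tested on simulated data. The chemokines, lists and markers were chosen with earlier results of these data known, among them the lower Cxcl9 in a myeloid subset.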

Additional observations from a re-analysis of the deposited data

Results flagged for a closer look

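In several genes the genotype ratio (log2, Cre over fl/fl library) had opposite signs in 2 myeloid types, with counting intervals that excluded 0 in both. These differences between types were not tested, because each genotype is 1 library. Cxcl9 was at -1.05 in macrophages and -1.54 in Langerhans cells, and at 0.21 in monocytes and 0.47 in mature migratory dendritic cells. The Langerhans cell ratio was -1.44 (-2.25 to -0.67) without the 5 highest cells of each library.

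Cxcl10 was at 0.42 in macrophages, 0.58 in Langerhans cells and 1.81 in mature migratory dendritic cells, and at -0.22 in monocytes and -1.09 in neutrophils. Without the 5 highest cells of each library the monocyte and neutrophil ratios were 0.54 (0.26 to 0.83) and 0.44 (-1.92 to 3.13), so both negative ratios rested on those cells.

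Cxcl2 was at -0.10 in macrophages and at 0.14 in monocytes, 0.29 in Langerhans cells and 3.20 in cDC1. Cxcl16 was at -0.17 in macrophages and at 0.18 in monocytes and 0.26 in cDC1. The cDC1 ratio of Cxcl16 was 0.04 (-0.24 to 0.31) without cells that carried a T or B cell receptor UMI.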

How the results depend on the processing

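With 1 library per genotype no replicate could be left out, and no paired analysis was possible because each genotype has 1 library. Of the macrophage log2 ratios recomputed under other settings, 37 moved by less than their counting interval and 16 moved by more. The other 1 changed sign from an interval that had excluded 0, Cxcl10 at -0.051 with every cell weighted equally. Cxcl9 kept its direction, at -1.0 after thinning, -1.10 with equal weights, -1.12 on a median scale and -1.13 without the 5 highest cells. Cxcl10 was at 0.56 with the chemokines among the clustering genes, 0.51 with stricter cell filters and 0.64 without the 5 highest cells. Cxcl1 was at -0.022 and Cxcl2 at -0.037 without cells carrying a receptor UMI. Cxcl2 was at -0.16 after thinning, -0.19 with equal weights, -0.17 on the median scale and -0.15 at resolution 0.4, and Cxcl16 at -0.11 after thinning and -0.24 on the median scale. Cxcl3 changed sign too, from 0.33 with an interval that held 0 to -1.12 at resolution 0.4. The class named macrophages was not the same cells at that resolution. It included a cluster of 194 and 217 cells, while the cycling cluster 12 of the main setting had 67 and 77, and the T cell class was smaller. Whether cells of the cycling T cell cluster 7, which held 88 and 2 Cxcl3 UMIs, joined it was not tested. The macrophage share of UMIs moved without receptor-carrying cells to 44% for Cxcl9, 30.9% for Cxcl10, 70.2% for Cxcl1, 54.0% for Cxcl2, 10.9% for Cxcl3 and 46.8% for Cxcl16, since fewer cells then count as macrophages. At resolution 0.4, for the changed class described above, it was 56.5% for Cxcl10, 78.7% for Cxcl1, 65.9% for Cxcl2 and 35.2% for Cxcl3. At resolution 1.6 it was 62.1% for Cxcl9. With stricter filters it was 63.2% for Cxcl9, 84.1% for Cxcl1, 76.0% for Cxcl2 and 27.2% for Cxcl3, and with the chemokines among the clustering genes 60.6% for Cxcl9, 47.1% for Cxcl10, 66.5% for Cxcl2 and 60.03% for Cxcl16. The odds ratio of Cxcl9 with Cxcl10 was 1.87 in Cre macrophages with all UMIs and 1.73 in fl/fl macrophages with at least 2 UMIs. Genes past the limit numbered 1819 (2 members) at a log2 ratio of 0.5 and 117 with at least 100 UMIs. In other types, 2 alternatives chosen after seeing the data left out single cells. Without the 5 highest cells Cxcl10 changed sign in monocytes (0.54), neutrophils (0.44) and epithelial or tumor cells (0.53), as did Cxcl2 in NK cells (0.90), all with intervals that excluded 0 when every cell was kept. Among ratios whose interval had held 0, the sign also changed for Cxcl9 (1.51) and Cxcl10 (1.17) in cDC1, Cxcl2 in neutrophils (0.07), Cxcl1 (0.16) and Cxcl3 (0.31) in T cells, and Cxcl10 (-0.55) and Cxcl16 (-0.63) in the unnamed cluster. Without receptor-carrying cells it changed for Cxcl9 (1.02) and Cxcl10 (0.96) in cDC1, Cxcl3 in neutrophils (-0.46), and Cxcl16 in Langerhans cells (-0.013) and mature migratory dendritic cells (0.03). Apart from these settings' own construction, the cause was not tested. Types of under 100 cells and Cxcl3 are limited by depth.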
